A study of Mus musculus with 6 samples.

Results

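Cadherins and protocadherins are the calcium-dependent adhesion proteins of the cell surface, and 57 of their genes were compared here in mouse embryonic stem (ES) cells of the HM1 line with or without a Prmt6 expression plasmid. The members were all genes whose symbol is Cdh followed by a number (23 genes) or begins with Pcdh (34 genes) among 19938 genes with a probe set naming 1 gene, each read by its probe set with the highest mean signal. The 3 control arrays came from HM1 cells transfected with the empty vector pCAGIP.puro, and the 3 overexpression arrays from HM1 cells transfected with the same vector carrying mouse Prmt6, which encodes a nuclear arginine methyltransferase. All cells grew in 15% serum with leukemia inhibitory factor at 1000 U/ml and were held in puromycin at 1 µg/ml for 3 days, so that each sample was a mixed population of transfected cells. Total RNA was hybridised to 1 Affymetrix array per sample. Whether replicates were separate cultures is not in the labels, and p-values therefore measure only sample-to-sample spread, which can be technical.

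Classical cadherins bind the same cadherin on a neighbouring cell, and their cytoplasmic tails hold beta-catenin and p120-catenin, which link them through alpha-catenin to actin. E-cadherin, the product of Cdh1, is the main adhesion molecule of mouse ES cells and of the early embryo, and N-cadherin, the product of Cdh2, appears as epiblast cells become mesoderm, endoderm or neural tissue. Protocadherins share the extracellular cadherin repeats but bind no beta-catenin. Many of them lie in the alpha, beta and gamma gene clusters, whose single promoters are switched on in individual neurons, and the remaining delta protocadherins are dispersed in the genome.

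With the Prmt6 plasmid, 4 of the 57 genes were higher and 2 were lower. E-cadherin and N-cadherin transcripts rose together: Cdh1 by 1.36-fold and Cdh2 by 1.76-fold. The protocadherin genes Pcdh18 and Pcdh7 rose by 2.30-fold and 2.04-fold, the largest rises among the members. The falls were those of the type II cadherin gene Cdh9, by 1.59-fold, and of the protocadherin gene Pcdh8, by 1.26-fold. The other 51 genes did not pass the threshold, an adjusted p under 0.05 (limma, Benjamini-Hochberg over all 19938 genes). Of all genes tested, 10.3% passed, 7.05% as rises and 3.25% as falls, so the 10.5% among the members was close to the share among all genes. Rises made up 68.5% of all calls (80.4% with arrays centred on their medians, where these 6 members and Pcdhb17 passed). The 3 arrays of one group lay entirely to 1 side of the other's for 11 members (19.3%), 8 upward and 3 downward, and for 29.7% of all genes, 17% upward and 12.7% downward. By family, 3 of 23 Cdh genes (13%) and 3 of 34 Pcdh genes (8.82%) passed. The median log2 difference, overexpression minus control, was -0.06 for Cdh, -0.022 for Pcdh and 0 for all genes.

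The windows of 250 bases before the annotated start are shown for the called members that have one in the RefSeq table (GRCm38.p6), so that the promoters of genes that rose and fell can be read beside their values. A window was found for 22 of the 57 members, 13 of them Cdh and 9 Pcdh. Cdh1 and Cdh2 had none. Capitals mark any of 5 motifs searched on both strands: the E-box CAGGTG bound by Snai and Zeb repressors (CACCTG on the other strand), the CCAAT box (CCAAT or ATTGG), the TATA box (TATAAA or TTTATA), the GC box (GGGCGG or CCGCCC) and the TEAD motif (GGAATG or CATTCC). No matches overlapped in these windows. Pcdh18 and Pcdh7 rose, and Cdh9 and Pcdh8 fell.
Pcdh18: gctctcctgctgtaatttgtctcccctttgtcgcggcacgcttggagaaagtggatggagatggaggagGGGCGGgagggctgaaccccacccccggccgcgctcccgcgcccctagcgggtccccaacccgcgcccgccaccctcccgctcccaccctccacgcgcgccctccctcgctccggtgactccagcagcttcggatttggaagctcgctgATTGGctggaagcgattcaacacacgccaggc
Pcdh7: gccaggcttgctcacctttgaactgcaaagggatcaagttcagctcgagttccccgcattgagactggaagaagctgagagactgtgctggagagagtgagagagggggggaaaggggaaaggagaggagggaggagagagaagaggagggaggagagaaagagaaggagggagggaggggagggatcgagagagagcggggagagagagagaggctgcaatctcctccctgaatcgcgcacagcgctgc
Cdh9: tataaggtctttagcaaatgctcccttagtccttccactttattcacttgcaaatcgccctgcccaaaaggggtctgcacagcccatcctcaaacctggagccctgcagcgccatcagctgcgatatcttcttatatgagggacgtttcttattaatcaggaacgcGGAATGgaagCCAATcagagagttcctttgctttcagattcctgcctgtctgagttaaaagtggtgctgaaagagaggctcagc
Pcdh8: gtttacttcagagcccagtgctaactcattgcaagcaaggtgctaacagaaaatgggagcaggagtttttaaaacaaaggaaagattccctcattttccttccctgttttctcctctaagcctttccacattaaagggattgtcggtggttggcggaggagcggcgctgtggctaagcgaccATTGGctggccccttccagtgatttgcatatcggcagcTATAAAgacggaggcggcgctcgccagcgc
These windows lie at chr3:49757317-49757566 on the minus strand (Pcdh18), chr5:57717831-57718080 on the plus strand (Pcdh7), chr15:16728665-16728914 on the plus strand (Cdh9) and chr14:79771313-79771562 on the minus strand (Pcdh8). The Pcdh18 window held 23 CpG dinucleotides, Pcdh8 held 11, Pcdh7 held 7 and Cdh9 held 6, where the median of all 32851 windows was 6. A CCAAT box began 32 bases before the start in Pcdh18, 74 in Cdh9 and 68 in Pcdh8, and 33.8% of all windows held one. A TATA box began 30 bases before the start of Pcdh8 (12.4% of all windows), a GC box 181 bases before that of Pcdh18 (32.7%) and a TEAD motif 84 bases before that of Cdh9 (12.6%). The Pcdh7 window held none of the 5 motifs, and none of the 4 windows held the E-box, which was found in 17.2% of all windows. Without windows for Cdh1 and Cdh2, the E-box was not looked for there. A match describes letters and does not show that a factor binds.

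The deposited values are log2 signals from robust multi-array average (RMA) processing. A difference of 1 is a doubling, and signals of different probe sets are not comparable as levels. Prmt6 itself was read at 6.84, 6.58 and 7.12 in control and at 7.32, 7.40 and 7.33 in overexpression, a rise of 1.42-fold (0.50 ± 0.13, SE, n = 3 per group, adjusted p = 0.0406). That call ended without control replicate 1 (adjusted p = 0.116) or 2 (0.0954), or without overexpression replicate 1 (0.0893), 2 (0.119) or 3 (0.0788). Array medians lay between 5.54 and 5.62, and correlations across probe sets, which are not independent replicates, were at least 0.980 for any pair of arrays. No detection calls were used. The member signals were mostly dim: 39 of 57 had a mean under the 30th percentile of gene means (4.85), 28 of them Pcdh and 11 Cdh, and 18 lay above it.

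The classical type I cadherins, Cdh1, Cdh2, Cdh3, Cdh4 and Cdh15, had 2 rises and 0 falls among 5 genes (40% called, against 10.3% of all genes). Of these 5 genes, 4 lay above the median of gene means. Cdh1 was read at 10.14, 10.16 and 10.15 in the control arrays and at 10.61, 10.52 and 10.66 in the overexpression arrays. All 3 overexpression arrays lay above all 3 control arrays, which had an SD of 0.01. The difference was 0.45 ± 0.071 (95% interval 0.29 to 0.61, adjusted p = 0.00511, limma). Cdh2 was read at 7.02, 7.07 and 7.01 in control and at 7.87, 7.84 and 7.83 in overexpression. The groups were again separate, with a gap far wider than the spread within either, and the difference of 0.81 ± 0.066 (0.66 to 0.96) had the smallest adjusted p of all members (0.000132). Both calls held under all 15 alternatives run, with adjusted p up to 0.0291 for Cdh1 and up to 0.00172 for Cdh2.

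Cdh3, the gene of P-cadherin, found in placenta and in basal epithelia, was read at 7.08, 7.22 and 7.06 in control and 7.16, 7.04 and 7.12 in overexpression. The groups overlapped, and the difference was -0.013 ± 0.077 (adjusted p = 0.946), with a 95% interval from -0.19 to 0.16, or a fold from 0.877 to 1.12. Its sign turned with arrays centred on their medians (0.033). Cdh3 and Cdh1 are neighbours in the genome, with no other protein-coding gene between them in RefSeq. Cdh4, or R-cadherin, known from retina and brain, was at 0.0033 ± 0.11, and Cdh15, or M-cadherin of skeletal muscle, at -0.14 ± 0.13, both with overlapping groups.

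Because Cdh1, Cdh2 and Cdh3 were read on the same arrays, the change in 1 gene can be set against that in another. The log2 signal of Cdh2 minus that of Cdh1 moved from -3.12 ± 0.025 to -2.75 ± 0.075 (SD, n = 3), a shift of 0.37 in which no arrays overlapped (exact permutation test, two-sided, p = 0.1). That of Cdh1 minus Cdh3 moved from 3.03 ± 0.079 to 3.49 ± 0.046, a shift of 0.46 without overlap (exact permutation p = 0.1). That of Pcdh18 minus Pcdh7 moved from 1.24 ± 0.21 to 1.41 ± 0.23, and the groups overlapped (exact permutation p = 0.5). These 3 pairs were chosen after their values were seen. With 3 arrays against 3 the smallest possible p is 0.1, and adjusted over the 3 pairs the values were 0.15, 0.15 and 0.5, so none passed.

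**Figure D1:**
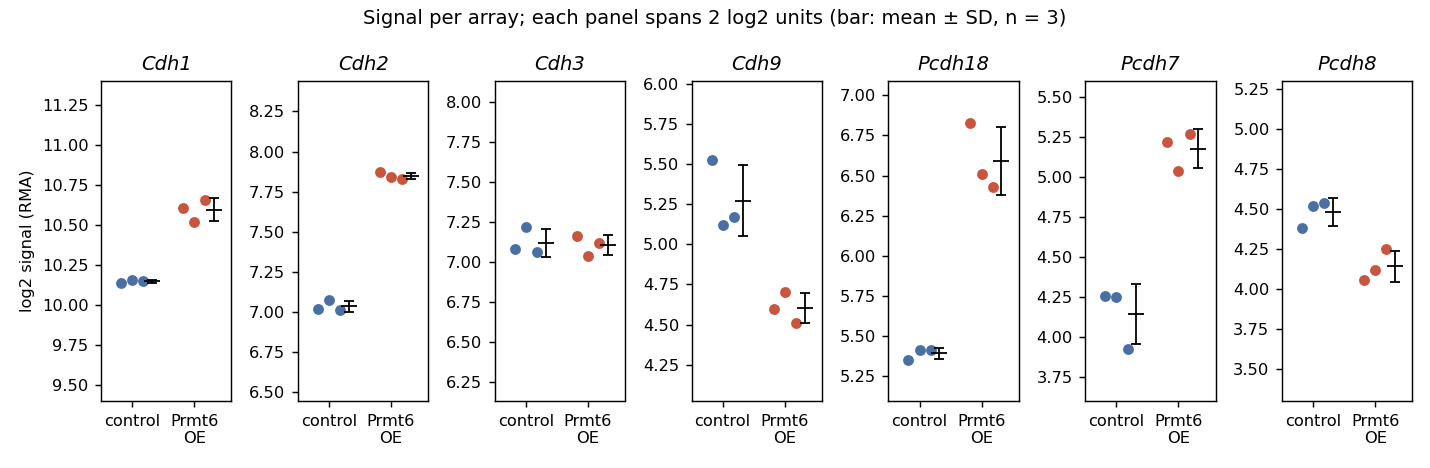
Log2 signal of 7 genes on each array (vertical axis, 2 log2 units high in every panel), with control in blue and Prmt6 overexpression (OE) in red, and bars for the mean ± SD of 3 arrays. The groups are apart in every panel except Cdh3, upward in Cdh1, Cdh2, Pcdh18 and Pcdh7 and downward in Cdh9 and Pcdh8.

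The type II cadherins lack the histidine-alanine-valine adhesion motif of type I and are best known from neurons, vessels and mesenchyme. They had 1 fall and 0 rises among 13 genes (7.69% called, against 10.3% of all genes). Cdh9, expressed in subsets of neurons and at hippocampal synapses, was read at 5.53, 5.12 and 5.17 in control and at 4.60, 4.70 and 4.51 in overexpression. Every overexpression array lay below every control array, control replicate 1 being the highest, and the difference was -0.67 ± 0.12 (-0.94 to -0.40, adjusted p = 0.00799). The overexpression readings lay under the 30th percentile of gene means (4.85) and the control readings above it. The call held under the 14 alternatives in which the gene was tested, with adjusted p up to 0.0332. Among these, the filter at the 30th percentile kept Cdh9 only through its control arrays, so that refit is not separate support. Its neighbours on either side, Cdh6 and Cdh10, were at -0.027 ± 0.12 and 0.37 ± 0.12 without passing (adjusted p = 0.929 and 0.103). The Cdh10 value passed without control replicate 1 (adjusted p = 0.0202).

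Cdh8 was read at 4.27, 4.38 and 4.18 in control and 4.11, 3.96 and 4.01 in overexpression. Its groups did not overlap, downward, but the difference of -0.25 ± 0.082 did not pass (adjusted p = 0.0972), except with array weights (0.0421). Cdh5, or VE-cadherin, the defining cadherin of endothelium, was at 0 ± 0.13 and Cdh11, or OB-cadherin of osteoblasts and mesenchyme, at 0.15 ± 0.11 (adjusted p = 1 and 0.444). Cdh11 was read at 4.56, 4.42 and 4.54 in control and at 4.66, 4.46 and 4.85 in overexpression, with overlapping groups. The other type II genes, Cdh7, Cdh12, Cdh18, Cdh19, Cdh20, Cdh22 and Cdh24, lay between -0.21 (Cdh22) and 0.073 (Cdh19).

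The 5 remaining cadherins all had small negative differences, from -0.12 for Cdh13 to -0.077 for Cdh23, and none passed. Cdh13 encodes T-cadherin, which is anchored in the membrane by a lipid and has no cytoplasmic tail, while Cdh16 and Cdh17 encode the cadherins of kidney and of liver and intestine. Cdh23 forms the tip links of inner-ear hair cells with Pcdh15, which was at 0.037 ± 0.14. Cdh26 was at -0.087 ± 0.12. For these 5 genes the 95% intervals ran from -0.38 to 0.19 at their widest, and control and overexpression arrays overlapped in each.

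Among the dispersed protocadherins, Pcdh18, a delta-2 member that binds the adaptor Dab1, had the largest change of any member. It was read at 5.35, 5.41 and 5.41 in control and at 6.83, 6.51 and 6.43 in overexpression. The groups were far apart, and the spread was wider with the Prmt6 plasmid (SD 0.21 against 0.035). The difference was 1.20 ± 0.11 (0.95 to 1.44, adjusted p = 0.000222). Pcdh7, a delta-1 member known from brain and heart, was read at 4.26, 4.25 and 3.93 in control and at 5.22, 5.04 and 5.27 in overexpression. These groups were also apart, with a difference of 1.03 ± 0.11 (0.78 to 1.28, adjusted p = 0.000619). Its mean over all arrays lay under the 30th percentile of gene means, so it was tested only where dim genes were kept. Both calls held in every alternative in which the gene was tested (15 for Pcdh18 and 13 for Pcdh7). The filter at the median of gene means (5.87) used the mean over both groups. It kept Pcdh18 only through the overexpression arrays (mean 6.59, against 5.39 in control), so that refit is not separate support.

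Pcdh8, or paraxial protocadherin, a delta-2 gene of the primitive streak and somites and of excitatory synapses, was read at 4.38, 4.52 and 4.54 in control and at 4.06, 4.12 and 4.25 in overexpression. The groups did not overlap but lay close together, and the difference was -0.34 ± 0.083 (-0.53 to -0.15, adjusted p = 0.0373). Every reading lay under the 30th percentile of gene means (4.85), where signal cannot be separated from background here. The call ended without control replicate 1 (adjusted p = 0.0590), 2 (0.126) or 3 (0.138), without overexpression replicate 1 (0.0812) or 2 (0.109), with a trended, robust prior on the variance (0.0656) and after quantile normalization (0.0538).

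Of the other dispersed protocadherins none passed. In the delta-1 class, Pcdh1, an adhesion protein of airway epithelium, was at 5.21, 5.23 and 5.04 in control and 5.35, 5.47 and 5.29 in overexpression. These arrays did not overlap, and the difference of 0.21 ± 0.085 gave an adjusted p of 0.171. Pcdh9 was at -0.13 ± 0.078 and Pcdh11x at -0.023 ± 0.15. In the delta-2 class, Pcdh10, Pcdh17 and Pcdh19 lay at -0.077 ± 0.073, -0.15 ± 0.096 and -0.26 ± 0.17, and their groups overlapped. Pcdh17, one of the dispersed genes with the highest signal, was read at 5.70, 5.76 and 5.70 in control and 5.37, 5.71 and 5.62 in overexpression, and Pcdh15 at 5.46, 5.49 and 5.29 and at 5.12, 5.55 and 5.68. Overexpression replicate 1 was the lowest array for both. Pcdh12, an endothelial protocadherin, was at -0.24 ± 0.11 and Pcdh20 at 0.19 ± 0.16. Within the delta-2 class, Pcdh18 was called as a rise and Pcdh8 as a fall in the fit as reported. The Pcdh8 fall did not pass in 8 of the 13 alternatives in which the gene was tested. Its readings were also too dim to be separated from background here, so opposite changes of Pcdh18 and Pcdh8 are not established.

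All 22 genes of the protocadherin beta cluster were measured, and 0 passed in the fit as reported (3 at an unadjusted p under 0.05, where 24.5% of all genes had such a p). Each beta gene is a single exon with its own promoter, and the 22 genes stand in a row in RefSeq with no other protein-coding gene between them. Their log2 differences ran from -0.16 (Pcdhb11) to 0.28 (Pcdhb22), with a median of -0.02, and 13 were negative and 9 positive. The arrays did not overlap for 3 of the 22 genes (13.6%), against 29.7% of all genes. These were Pcdhb17 (2.26, 2.33 and 2.34 in control; 2.47, 2.59 and 2.65 in overexpression), Pcdhb6 and Pcdhb7, all upward, at 0.26 ± 0.076, 0.20 ± 0.076 and 0.13 ± 0.069 (adjusted p = 0.0695, 0.140 and 0.309). Pcdhb17 passed without overexpression replicate 1 (adjusted p = 0.0388), with arrays centred on medians (0.0308) and with array weights (0.0287). Of the beta genes, 20 lay under the 30th percentile of gene means, and their sequences are so similar that signal may be shared between probe sets, which leaves each beta gene's own value uncertain.

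The alpha cluster was read by 1 probe set that names 14 genes and so gives no value for any 1 of them. It was at 4.21, 4.24 and 4.36 in control and 4.02, 4.24 and 4.37 in overexpression, a difference of -0.06, with overlapping groups. The 14 alpha and 22 gamma genes that RefSeq lists were otherwise not analysed here. Another 3 probe sets name Cdh11 together with other transcripts. They differed by -0.03 to 0.013 between the groups and are not assigned to Cdh11. Of the 4 members with a further single-gene probe set, the extra probe set gave 0.11 for Pcdh15, -0.11 for Cdh24, -0.19 for Pcdh9 and -0.013 for Cdh18, and none passed.

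**Figure D2:**
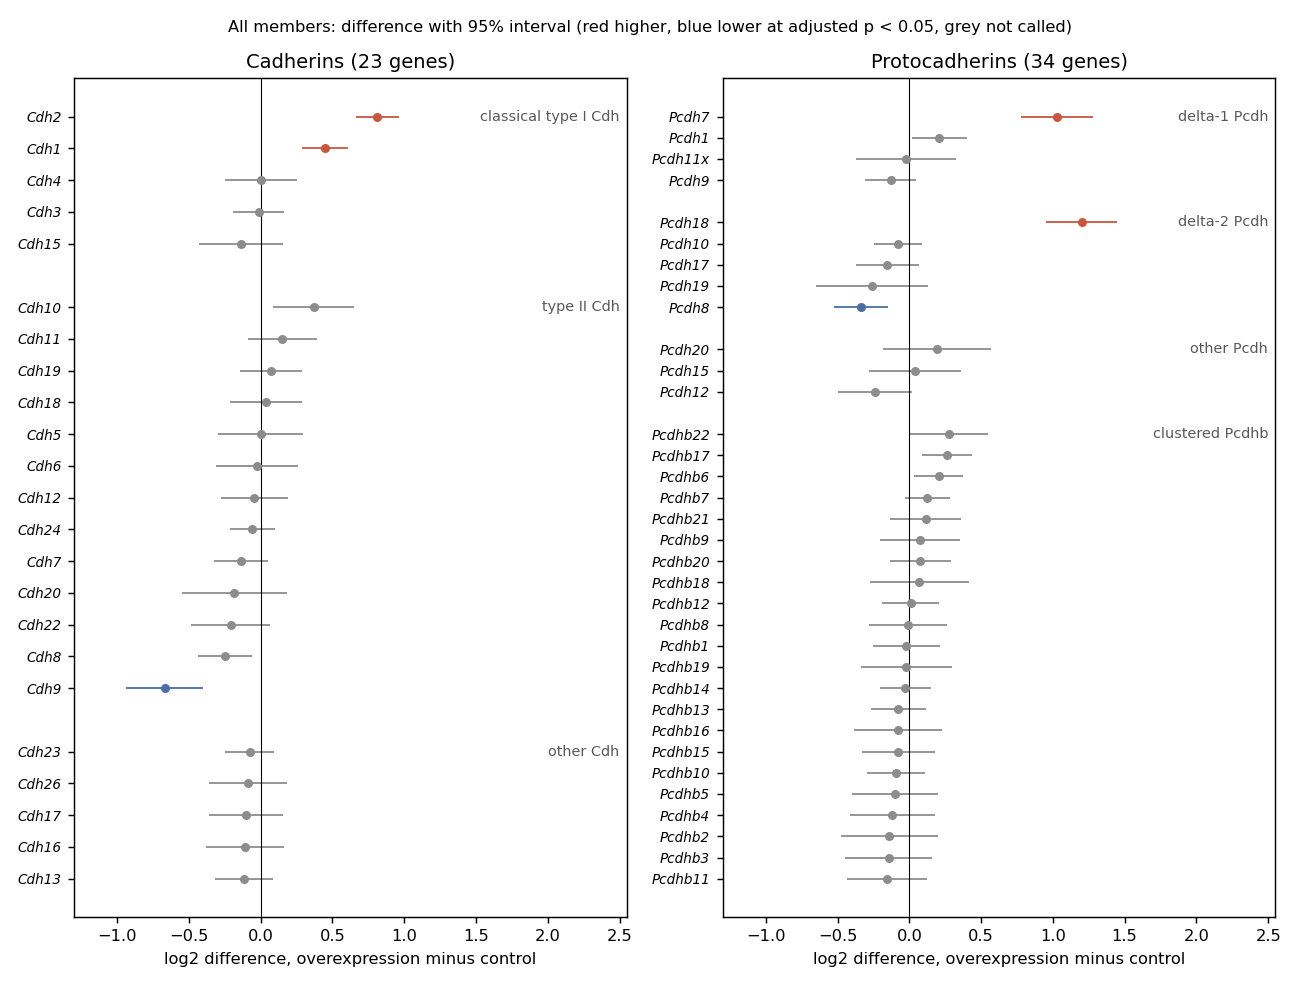
Log2 difference between Prmt6 overexpression and control (horizontal axis) for all 57 members, grouped by class, with 95% intervals from limma. The 4 called rises (red) and 2 called falls (blue) stand outside a field of 51 genes between -0.26 and 0.37, and the 22 beta-cluster genes lie between -0.16 and 0.28.

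The catenins and other partners of classical cadherins were described as a list of 21 measured genes. Of these, 5 rose, 1 fell and 15 did not pass (28.6% called, against 10.3% of all genes). The median log2 difference was 0.037, against 0 for all genes. Within the list, 17 genes lay above the median of gene means. With genes under that median left out, 3016 of the 9971 genes tested passed. That refit has its own adjustment, so its share is not the same measure as the 28.6%. Vcl, which encodes vinculin and reinforces junctions under tension, rose by 0.97 ± 0.07 (adjusted p = 6.70e-05). Jup, or plakoglobin, the relative of beta-catenin that also serves desmosomes, rose by 0.51 ± 0.082. Adam10, the protease that sheds the E-cadherin and N-cadherin ectodomains, rose by 0.55 ± 0.074. Nectin2 and Afdn, an immunoglobulin-type adhesion protein and its actin-binding partner afadin, rose by 0.45 ± 0.082 and 0.32 ± 0.082. The alpha-catenin relative Ctnnal1 fell (-0.37 ± 0.072).

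The core catenins did not pass. Ctnnb1, or beta-catenin, was at 0.023 ± 0.067 (adjusted p = 0.879), Ctnnd1, or p120-catenin, at 0.23 ± 0.081 (0.122) and Ctnna1, or alpha-E-catenin, at 0.29 ± 0.078 (0.0510). The Ctnna1 value passed with arrays centred on medians (adjusted p = 0.0307), with genes under the 30th percentile (0.0214) or the median (0.00911) left out, with the trended, robust prior (0.00294) and with array weights (0.0494). Ctnnd1 passed with the trended, robust prior (0.0261) and among genes above the median alone (0.0340). Afdn no longer passed without control replicate 1 (0.104), 2 (0.144) or 3 (0.131), and without overexpression replicate 1 (0.0686) or 2 (0.0844). Ctnnal1 did not pass without control replicate 1 (0.0590), 2 (0.0516) or 3 (0.0579) or overexpression replicate 2 (0.0545).

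Of 24 further cadherin-superfamily genes outside the naming rule, 2 rose and 22 did not pass (8.33% called, against 10.3% of all genes, median -0.058). Both rises were desmosomal cadherins, Dsc2 (2.82-fold, adjusted p = 3.44e-05) and Dsg2 (0.40 ± 0.073, adjusted p = 0.0104), and Dsg2 did not pass without control replicate 3 (0.0514). Among the other desmosomal cadherins, Dsg1b was at -0.53 ± 0.14 (adjusted p = 0.0503). It passed as a fall without overexpression replicate 2 (0.0209) and with the trended, robust prior (0.0273). Dsg1c, Dsg3, Dsg4 and Dsc3 lay between -0.047 and 0.087 without passing. The giant cadherins Fat1, Fat2, Fat3 and Fat4 and the planar-polarity cadherins Celsr1, Celsr2 and Celsr3 lay between -0.25 and 0.11. None of them passed in the fit as reported. Celsr1 passed as a fall in 1 of 15 alternatives (adjusted p = 0.0341) and Celsr2 in 2 of 14 (0.0397 and 0.0437). Dchs1 (0.24 ± 0.079, adjusted p = 0.0953) passed as a rise in 3 of 14 (0.0383 to 0.0478).

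Of 6 transcription factors known to repress Cdh1, 2 rose and 4 did not pass, in the same arrays in which Cdh1 rose. The share called was 33.3%, against 10.3% of all genes. Zeb2 was at 0.88 ± 0.095 (adjusted p = 0.000637) and Twist2 at 0.45 ± 0.11 (0.0384). Snai1, Snai2, Zeb1 and Twist1 lay at 0.033, -0.29, -0.15 and 0.22. Twist1 passed as a rise in 4 of 15 alternatives (adjusted p from 0.0187 to 0.0443). Twist2 did not pass without overexpression replicate 2 (0.0914) or 3 (0.0706), nor without any 1 control array (0.0729 to 0.135). Of 12 genes that act at clustered protocadherin promoters, 1 fell and 11 did not pass (8.33% called, median -0.14). The fall was that of Dnmt3b, the de novo DNA methyltransferase that methylates these promoters in the embryo (-0.30 ± 0.078, adjusted p = 0.0464). It ended without every array but overexpression replicate 1 (adjusted p from 0.102 to 0.151) and with median-centred arrays (0.101). Ctcf, the insulator protein that loops enhancers to these promoters, was at -0.15 ± 0.095, and Smchd1, which silences the clusters, at -0.14 ± 0.074. Setdb1 (-0.25 ± 0.088, adjusted p = 0.119) passed as a fall in 3 of 15 alternatives (0.0271 to 0.0472).

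**Figure D3:**
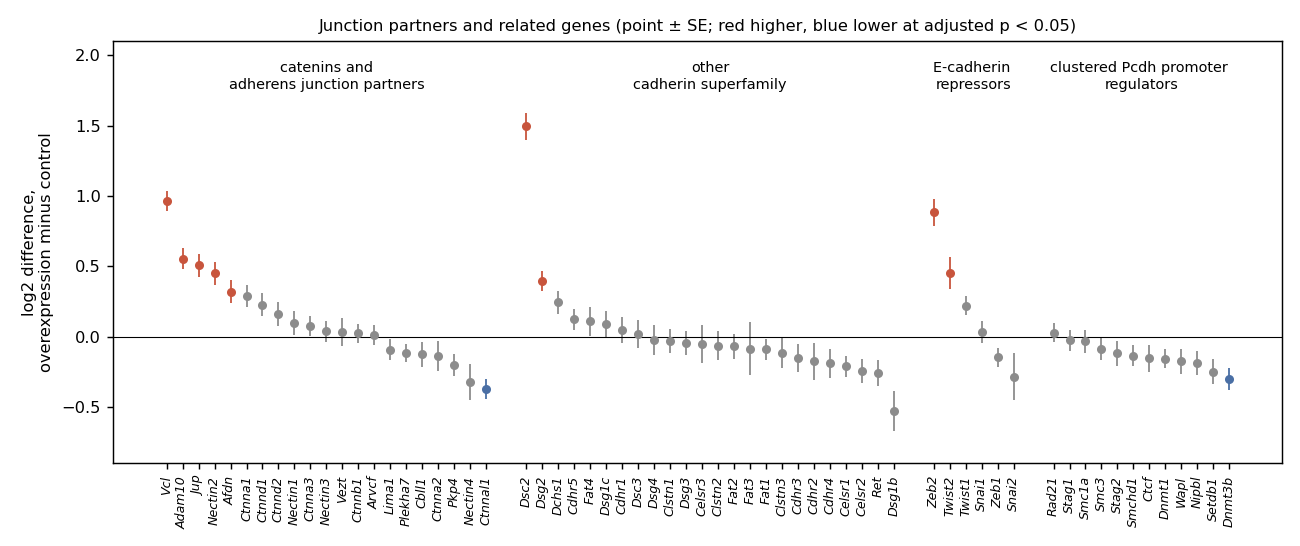
Log2 difference ± SE (vertical axis, overexpression minus control) for the junction partners, the other cadherin-superfamily genes, the E-cadherin repressors and the regulators of clustered protocadherin promoters. Red points (rises) stand at the left of the first 3 lists, led by Vcl, Dsc2 and Zeb2, and the 2 blue points are Ctnnal1 and Dnmt3b.

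Markers of other cell types moved in the same arrays. In bulk RNA, fewer cells of a type and less RNA per cell cannot be told apart. A sum over a list weights its brightest probe sets most. Beside the counts below, 10.3% of all genes passed, 7.05% as rises and 3.25% as falls. The fibroblast markers had 5 rises among 9 genes (Col1a1, Col1a2, Col3a1, Dcn and Pdgfrb), and their summed linear signal ran from 368 to 407 in control and from 605 to 663 in overexpression. Col3a1 did not pass in 6 of 15 alternatives (adjusted p from 0.0701 to 0.113 in these), Dcn in 6 of 13 (0.0501 to 0.130), and Pdgfrb without control replicate 1 (0.0567). The endoderm markers (Gata6, Sox17 and Dab2) and trophoblast markers (Hand1, Plac1 and Krt7) each had 3 rises among 6 genes. Their sums ran from 253 to 266 against 331 to 351 and from 287 to 307 against 627 to 696. Krt7, the brightest trophoblast probe set in overexpression, rose by 2.34 ± 0.11, while Elf5 lay at -0.25 ± 0.12 (adjusted p = 0.242). In some alternatives Gata4 (5 of 14), Gata3 (7 of 15) and Cdx2 (3 of 14) also passed as rises. The endoderm rises numbered 2 without any 1 control array, where Sox17 did not pass (adjusted p from 0.0634 to 0.0869). Of 7 neuronal markers, Tubb3 rose (0.53 ± 0.072) and 6 did not pass, with sums from 1336 to 1413 against 1534 to 1742. The brightest probe set in that sum was that of Stmn2, which did not pass (0.19 ± 0.087, adjusted p = 0.216). Of 7 endothelial markers, Tek fell (-0.70 ± 0.07) and 0 rose, with sums from 452 to 475 against 379 to 410. The brightest probe set in that sum was that of Tek. Esam lay the other way without overlap (0.33 ± 0.092, adjusted p = 0.0576) and passed as a rise in 5 of 14 alternatives (0.0250 to 0.0409). Tie1 (-0.21 ± 0.082, adjusted p = 0.156) passed as a fall with array weights (0.0454). The sums of the 7 ES cell markers overlapped, from 14633 to 15128 against 14826 to 15294, with falls of Nanog (-0.34) and Sox2 (-0.29) among them. The Sox2 fall did not pass in 8 of 15 alternatives, among them each array left out (adjusted p from 0.0549 to 0.163), and that of Nanog in 4, among them each control array left out (0.0552 to 0.0765). The part of these cell type markers in the rises of Cdh1, Cdh2, Pcdh18 and Pcdh7 was not tested.

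The calls of the members across processing settings are shown by gene. Cdh1, Cdh2, Cdh9, Pcdh18 and Pcdh7 stayed under 0.05 wherever they were tested, and Pcdh8 did not.

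**Figure D4:**
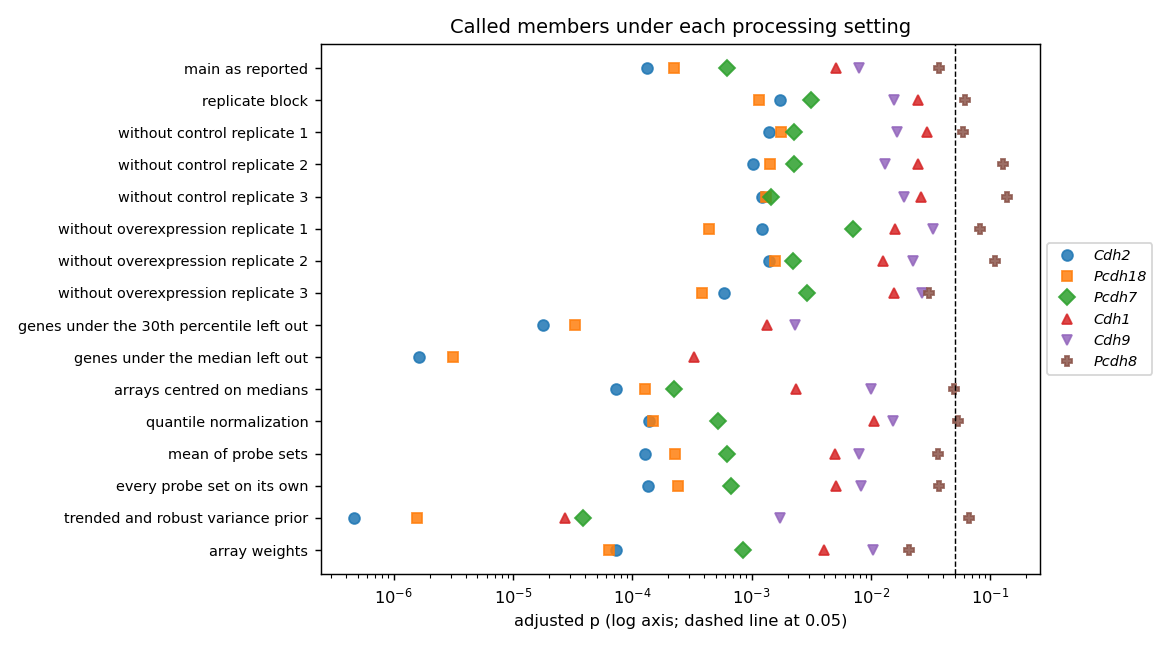
Adjusted p (horizontal log axis, dashed line at 0.05) of the 6 called members under the fit as reported and each of 15 alternatives (rows). Symbols for Cdh1, Cdh2, Cdh9, Pcdh18 and Pcdh7 lie left of the line in every row where the gene was tested, and those of Pcdh8 lie on both sides of it.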

How the data were processed

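RNA from 6 samples was measured on 1 array each. The deposited table holds log2 signals, rounded to 2 decimals, that the authors made with robust multi-array average (RMA), per the submitters' processing notes. The version and software, not given in the sources used here, are unknown. RMA equalizes the arrays, which would hide a shift common to most genes. Gene names came from the 2016 platform annotation (21789 single-gene probe sets), and the 57 members all matched RefSeq by gene identifier. Overexpression was compared with control by limma 3.58.1 in R 4.3.3 (lmFit, eBayes, constant prior, two-sided, no covariates, no filter), adjusted over 19938 genes. The number of arrays limits the precision. The procedure was tested on simulated data in 5 runs. It recovered 5.2% of log2 differences of 0.3, 41.2% of 0.5, 85.2% of 1 and 98.8% of 2. Of the simulated calls, 4.41% were false. The simulation changed far fewer genes than were called in the data. It also shuffled the spreads among genes, while the median SE was 0.110 for the members and 0.0896 for all genes. These shares may therefore not carry over. Among the 57 members, 50 differed by less than 0.3, so a member not called is not shown to be unchanged.

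Values are given for every member past the threshold (up to 24), for Cdh1, Cdh2, Cdh3 and Prmt6, and for the 3 Cdh and 3 Pcdh genes of highest mean; other members named were chosen after their values were seen. The members and lists were chosen with earlier results of these data known. Alternatives were a replicate block, each array left out, filters, scalings, probe set rules, variance priors and weights. Cdh1, Cdh2, Cdh9, Pcdh18, Pcdh7 and Pcdh8 each had 1 single-gene probe set, so the probe set rules left their differences unchanged. Figures used matplotlib 3.10.9 in Python 3.11.15.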

Additional observations from a re-analysis of the deposited data

How the results depend on the processing

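Cdh rises numbered 2 (Cdh1 and Cdh2) under every alternative but 1, and 3 without control replicate 1, where Cdh10 joined. Cdh falls numbered 0 with genes under the median left out, where Cdh9 was not tested, and 2 with array weights, where Cdh8 joined. Pcdh rises numbered 1 with genes under the 30th percentile or under the median left out, where Pcdh7 was not tested, and 3 with Pcdhb17 in 3 alternatives. The 1 Pcdh fall (Pcdh8) became 0 with the replicate block, with genes under the 30th percentile or under the median left out (not tested there), with quantile normalization, with the trended, robust variance prior and at adjusted p under 0.01, and it ranged from 0 to 1 when single arrays were left out. Same-numbered replicates shared only a number (their deviations correlated at -0.12 to -0.016). With the replicate block the calls of Cdh1 (adjusted p = 0.0246), Cdh2 (0.00172), Cdh9, Pcdh18 and Pcdh7 held, while Pcdh8 (0.0614), Prmt6 (0.0615), Afdn (0.0779) and Dnmt3b (0.0958) did not pass and Dsg1b (0.0246) did. Prmt6, the 6 called members, Cdh3, Pcdh15 and Pcdh17 had 143 refits. Of these, 129 kept their side of the threshold, 14 lost it (8 of Pcdh8 and 6 of Prmt6) and 0 reversed a call. The 129 include 15, 14 and 14 refits of Cdh3, Pcdh15 and Pcdh17, which were called in no fit and had no call to lose. Other genes named in the text are outside the 143 refits and also changed call. Among them were Sox2 in 8 alternatives, Dnmt3b and Gata3 in 7 each and Afdn in 6. Centring arrays moved the median of all genes by 0.047 and gave 1838 rises and 447 falls (80.4% rises, against 68.5%). Over all genes the called genes numbered 1401 with the block and 3176 with the trended, robust prior, against 2052. Leaving out 1 array gave 862 to 1232 rises and 280 to 763 falls. Falls over all genes numbered 990 and 1079 with the 2 filters, 1115 with the trended, robust prior and 1098 with array weights. Of the 51 members not called, 48 were called under no alternative, and Cdh8, Cdh10 and Pcdhb17 were called under 1, 1 and 3 of them. Without detection calls, signal cannot be separated from background for the 39 dimmest members.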
